A study of Capra hircus with 4 samples.

Results

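The Antral stage of goat granulosa cells (GCs) is described here as the authors' deposited stage table lists it. Its members are the 1229 rows of that table whose cluster is Antral, of 5452 rows for 4 follicle stages (1461 Primordial, 1457 Primary and 1305 Secondary). Each row pairs a gene with the share of GC nuclei of the stage in which a transcript of it was detected, and with the same share over the nuclei of the other 3 stages. The table covers 3231 genes, so 1 gene can stand under several stages. Both shares are the authors' values, pooled over nuclei of all goats, and they carry no error.

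Ovaries of 4 goats of about 3 years of age gave 1 library each of single nuclei sequenced in droplets. Per the labels, the 2 Nubian goats came from a polytocous group (litters of at least 3) and the 2 Du'an goats from a monotocous group (litters of 1). All 4 goats had carried a vaginal progesterone device (CIDR, 300 mg) for 17 days to synchronize estrus, with no further hormone that could cause superovulation per the labels. No untreated goat was included. Litter size and breed cannot be told apart in this design, and nothing beyond the goat separates the replicates of a breed. The deposited matrices held 40573246 and 60566681 unique molecular identifiers (UMIs, each tagging 1 captured RNA molecule) for Du'an 1 and 2, and 71613892 and 52783453 for Nubian 1 and 2. The libraries shared 54 to 131 cell barcodes pairwise, 0.505% to 1.40% of the barcodes of the smaller library.

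GCs surround the oocyte and support it. As a follicle forms its fluid-filled antrum, the GCs that line the follicle wall, the mural GCs, come to respond to luteinizing hormone through its receptor LHCGR, convert theca-derived androgen to estradiol through aromatase (CYP19A1), and secrete inhibins and activins, dimers built from the INHA, INHBA and INHBB subunits.

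Of the 1229 Antral rows, 1227 had a higher share of nuclei in the Antral stage than in the other stages. The median share was 47.8% in the stage and 35.8% in the others, with a median difference of 7.7 percentage points. The difference reached 10 points in 465 rows (37.8%), 25 points in 133 and 50 points in 15. In the Primordial, Primary and Secondary rows it reached 10 points in 210, 384 and 211 rows, 25 points in 37, 45 and 9, and 50 points in 0, 0 and 0. Because the authors chose these rows for their difference between the same nuclei, all shares of the stage against the others are a description with no test. Every row had a share above 25% on at least 1 side, with 25.1% the smallest.

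SYCP1, CYP19A1, INHBA and LHCGR had the widest gaps. SYCP1, a structural protein of the meiotic synaptonemal complex, was seen in 85.9% of Antral nuclei and 12.9% of the others. CYP19A1 was seen in 91.8% and 20.2%, INHBA in 96.5% and 30%, and LHCGR in 82.6% and 16.4%. INHA, the subunit that makes the dimer an inhibin, came 20th in order at 60.2% and 13.2%, and INHBB 33rd at 65.3% and 23.3%.

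**Figure D1:**
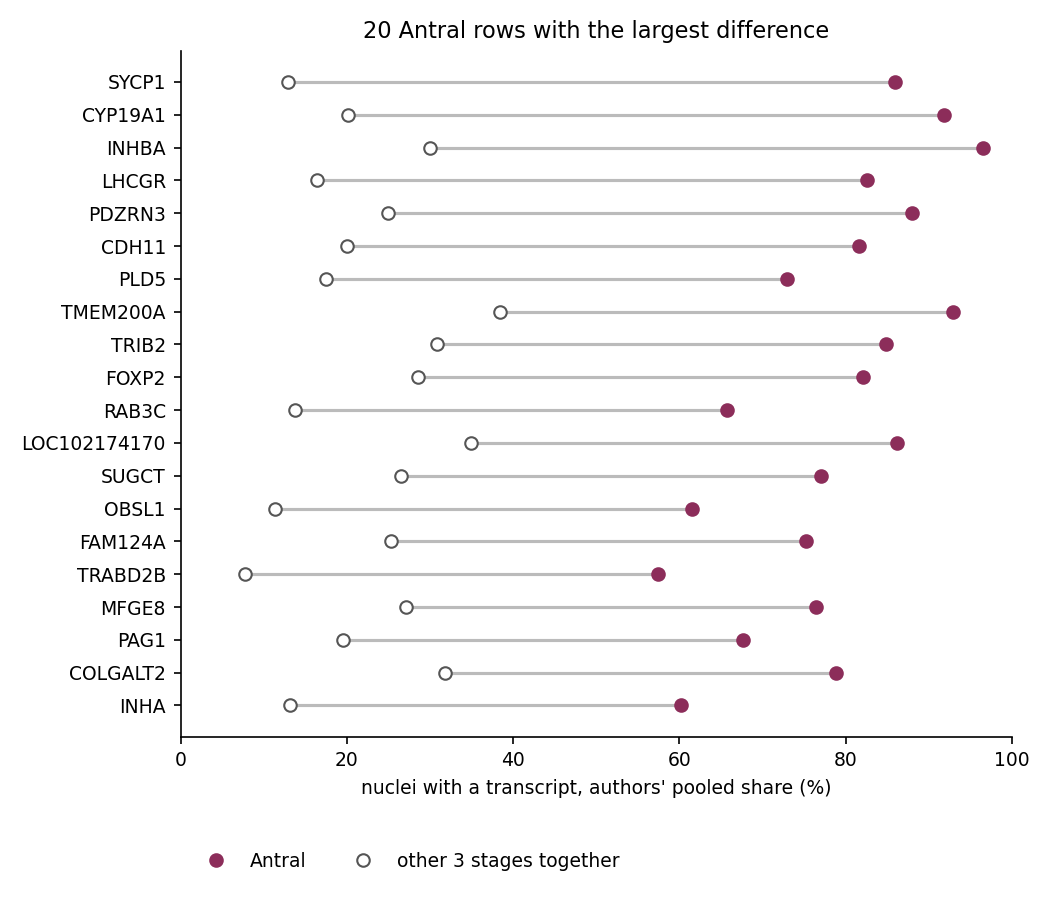
Authors' pooled share of nuclei with a transcript (%) for the 20 Antral rows with the largest difference, filled points for the Antral stage and open points for the other 3 stages together. Every filled point lies to the right of its open point, by 73.0 points for SYCP1 at the top and 47.0 for INHA at the bottom; LOC102174170 is a locus tag without a symbol.

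The remaining rows of the 20 with the largest differences included the cell adhesion gene CDH11 (81.6% and 20%), the forkhead factor FOXP2 (82.1% and 28.6%), the secretory small GTPase RAB3C (65.7% and 13.8%), the pseudokinase TRIB2 (84.9% and 30.9%) and the secreted glycoprotein MFGE8 (76.4% and 27.1%). PDZRN3, a ubiquitin ligase, stood at 88.0% and 25%, PLD5 at 73.0% and 17.5%, and TMEM200A at 92.9% and 38.4%. None of these 20 genes was listed under another stage. The row next in order differed by 46.8 points.

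Only EZH2 and CRIM1 had a lower share in the stage. EZH2, the histone H3 methyltransferase of Polycomb complex 2, stood at 23.8% in Antral and 26.3% in the others. CRIM1, a membrane protein that binds BMPs, stood at 47.5% and 54.0%.

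Membership overlapped less with the other stages than with the mural subtype. Of the Antral rows, 227 (18.5%) were also listed under Primordial, 290 (23.6%) under Primary and 312 (25.4%) under Secondary, which is 15.5%, 19.9% and 23.9% of the rows of those stages. A total of 563 Antral genes stood under no other stage, 503 under 1 other, 163 under 2 and 0 under all 3. The authors' second table splits the GCs into common progenitor, cumulus and mural GCs, and 1152 Antral genes (93.7%, and 96.7% of the 1191 mural rows) stood under mural GCs. For those genes the Antral share minus the mural share had a median of 0.6 points and ran from -3.4 to 8.3, within 2 points for 1041 genes and over 5 for 3. The Pearson correlation of the 2 shares was 0.999 across these genes, which share the nuclei and their depth and are not replicates.

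**Figure D2:**
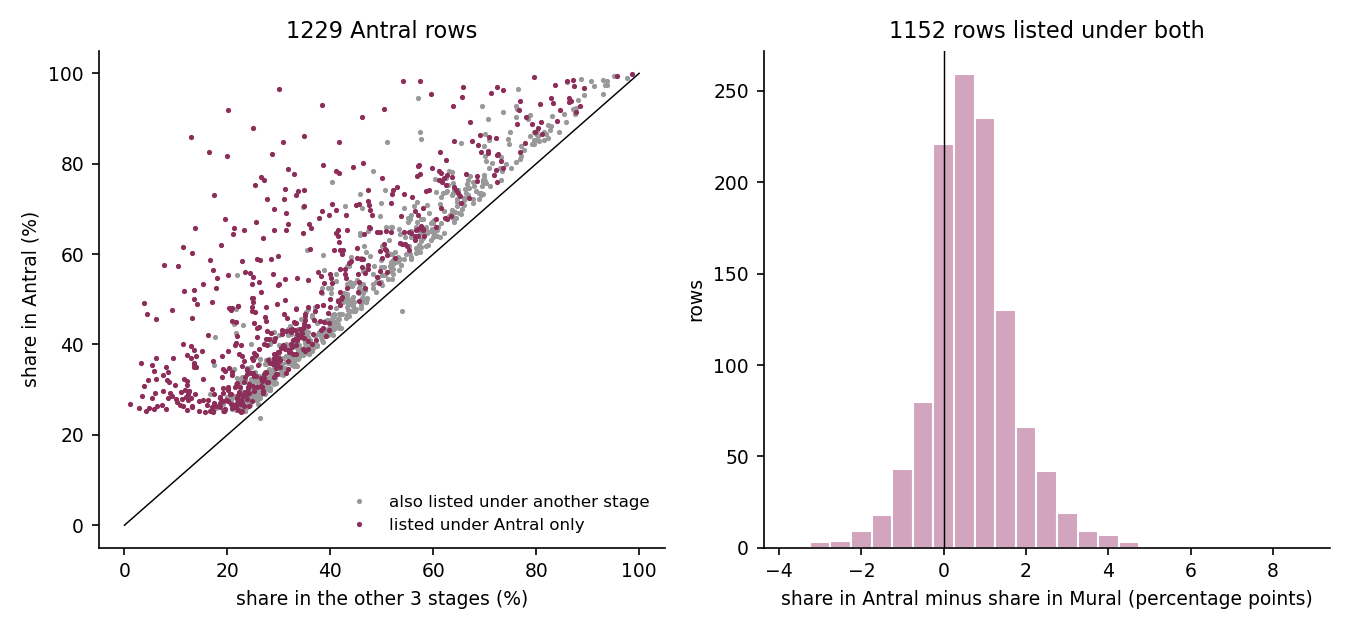
Left, share of nuclei in Antral against the share in the other 3 stages (%) for the 1229 Antral rows, with the line of equality. Right, number of rows by Antral share minus mural share (percentage points) for the 1152 genes listed under both. Of the 200 rows farthest above the line 22 also stood under another stage, and the differences from mural GCs had a median of 0.6 points.

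The largest excesses over mural GCs were those of G2E3 (33.9% in Antral, 25.6% in mural), the histone methyltransferase gene WHSC1 (44.8% and 37.5%), CCDC14 (37.4% and 32.0%), the DNA repair gene FANCC (51.6% and 47.1%) and HEG1 (42.3% and 38%). The largest deficits were those of TRABD2B (57.5% and 60.9%), the potassium channel KCNK2 (32.3% and 35.5%), GGT5 (32.4% and 35.4%), the mTOR inhibitor DEPTOR (43.5% and 46.3%) and the insulin signalling adaptor IRS1 (60.1% and 62.8%). Of the 77 Antral genes not listed under mural GCs, PAPPA, a protease that cleaves IGF binding proteins, had the largest gap to the other stages, 26.0% against 2.8%. Of the 39 mural genes not listed under Antral, DNAH12 had the largest, 26.0% in mural GCs against 2.4% outside. Both lie close to the smallest share listed, 25.1%, so absence from one list need not mean a difference between the groups.

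The sizes of the stages were recovered from the table itself. A gene listed under 2 stages has the same share over all nuclei from either row, and 2680 such pairs of rows gave by least squares 32.3% of GC nuclei for Antral, 29.8% for Primordial, 22% for Primary and 16% for Secondary, with a root mean square residual of 0.034 points. In the second table the mural GCs came to 30.5% of nuclei, cumulus GCs to 35.9% and common progenitor GCs to 33.6%.

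Marker and pathway genes fell into the Antral rows unevenly. All 7 antral or mural GC markers (CYP19A1, LHCGR, INHBA, INHA, INHBB, SERPINE2 and NR5A1) were Antral rows and none stood under another stage. The paper told mural GCs apart partly by CYP19A1, LHCGR and INHBA, so this describes the stage and does not test its name. Of 6 progenitor GC markers and 9 cycling markers 0 were Antral rows. Of 8 general GC markers 3 were (NR5A2, CHST8 and FST), and FSHR, the receptor of follicle-stimulating hormone, was not. Theca, endothelial, T or natural killer, macrophage, B cell, epithelial, multiciliated, fibroblast, pericyte, stromal and oocyte markers gave 0 rows, and the smooth muscle markers gave SYNM alone (25.8% and 5.7%).

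The deposited tables do not say which nuclei belong to which stage, so the per-goat values below come from nuclei clustered anew without any Antral or mural gene. Of 18 clusters, 1 had all 7 antral or mural markers up and is called antral-like here. CYP19A1, LHCGR, ROBO1, SYCP1, PDZRN3 and PLD5 were among its 10 leading genes, as was the hemoglobin gene HBBC. It held 8513 of the 23285 nuclei of the GC set, the 5 clusters taken as GCs. Over the 1229 Antral genes, the share of nuclei with a UMI in this cluster correlated with the authors' Antral share at r = 0.996 and was lower by a median of 8.15 points. In the other GC-set nuclei it correlated with the authors' share in the other stages at r = 0.9999, with a median absolute difference of 0.492 points. These genes share libraries and depth, and 1 of the 5 GC clusters, which no marker list named, was included because the authors' shares require it.

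The goats contributed very unequally to the antral-like nuclei. They made up 4.92% of the GC set in Du'an 1 (221 of 4494 nuclei, exact 95% binomial interval 4.30% to 5.59%), 34.7% in Du'an 2 (1724 of 4971, 33.4% to 36.0%), 67.4% in Nubian 1 (5788 of 8586, 66.4% to 68.4%) and 14.9% in Nubian 2 (780 of 5234, 13.9% to 15.9%). Nubian 1 supplied 68.0% of all antral-like nuclei. The breeds overlapped, with a mean of 41.2% in Nubian and 19.8% in Du'an goats, and the two-sided exact permutation p was 0.667, where 2 goats against 2 allow no p under 0.333. The unnamed GC cluster held 2079 nuclei of Du'an 1 and 2305 of Nubian 2, against 145 of Du'an 2 and 147 of Nubian 1. Without it the shares were 9.15% (221 of 2415 nuclei), 35.7% (1724 of 4826), 68.6% (5788 of 8439) and 26.6% (780 of 2929) in Du'an 1, Du'an 2, Nubian 1 and Nubian 2, with the goats in the same order and the same p.

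Du'an 1 stood apart from the other goats. Its antral-like nuclei had a median of 808 UMIs, against 4416 in Du'an 2, 3356 in Nubian 1 and 1591 in Nubian 2. Their 7 antral or mural markers summed to 864 counts per 1000000 UMIs (CPM), against 12564, 12621 and 9305 CPM in the other goats in that order, and their shares over the Antral genes correlated with the authors' Antral share at r = 0.776, against 0.947, 0.992 and 0.928. In Du'an 1 they correlated better with the authors' share in the other stages (r = 0.884), whereas in the other goats that correlation was the lower one, at 0.823, 0.850 and 0.886. The nuclei of Du'an 1 placed in this cluster thus did not carry its markers at the level of the other goats. For all Antral genes together, counts of those higher in every goat or in the GC set are given with and without Du'an 1.

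**Figure D3:**
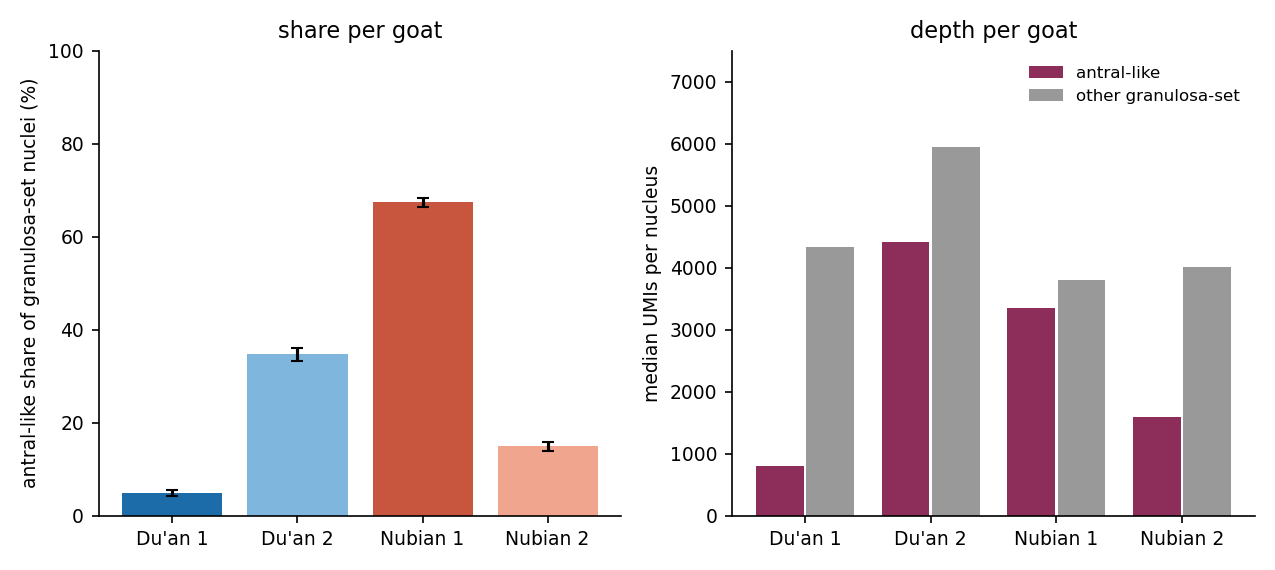
Left, antral-like nuclei as a share (%) of the GC-set nuclei of each goat, with exact 95% binomial intervals for counting error alone. Right, median UMIs per nucleus of antral-like and of other GC-set nuclei in each goat; Nubian 1 has the highest share (67.4%) and Du'an 1 the lowest share (4.92%) and depth (808 UMIs).

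CYP19A1 and LHCGR were high in the antral-like nuclei of 3 goats and low in Du'an 1. CYP19A1 stood at 42.4 CPM in Du'an 1, 1950 in Du'an 2, 2619 in Nubian 1 and 3034 in Nubian 2, against 10.7, 142, 309 and 82.7 CPM in the other GC-set nuclei of the same goats. LHCGR stood at 23.1, 2940, 1310 and 1340 CPM, against 6.22, 175, 116 and 83.6. Both genes were higher in the antral-like nuclei of Du'an 2, Nubian 1 and Nubian 2, while the levels of Du'an 1 rested on 11 UMIs of CYP19A1 and 6 of LHCGR. Both are among the 7 markers that named this cluster, so their rise in it is a description. Both Nubian goats lay above both Du'an goats for CYP19A1, and Du'an 2 was the highest goat for LHCGR. CYP11A1, which starts steroid synthesis by cleaving the cholesterol side chain (in the files under the locus tag LOC102173131), stood at 15.4, 54.7, 97.6 and 118 CPM, against 24.7, 14.9, 24.9 and 26.8. FDXR, which passes electrons to that enzyme, stood at 15.4, 72.3, 56.1 and 69.4 CPM, against 9.75, 16.5, 18.7 and 14.4. CYP11A1 and FDXR were higher in the antral-like nuclei of the same 3 goats, and in Du'an 1 each rested on 4 UMIs, from which no direction is read. HSD17B12, a hydroxysteroid dehydrogenase, differed little, at 162, 261, 303 and 242 CPM against 196, 250, 242 and 197.

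Inhibin and activin subunits followed the same division of goats less sharply. INHBA stood at 208 CPM in the antral-like nuclei of Du'an 1, 2163 in Du'an 2, 2109 in Nubian 1 and 2567 in Nubian 2, against 70.1, 221, 325 and 173 CPM in the other GC-set nuclei. INHA stood at 27.0, 176, 269 and 149 CPM, against 9.53, 45.6, 116 and 15.1. INHBB stood at 166, 211, 417 and 366 CPM, against 68.6, 62.1, 87.9 and 131. All 3 subunits were higher in the antral-like nuclei in 4 of 4 goats, INHA in Du'an 1 from 7 UMIs only. So were 30.8% of all Antral genes and 10.3% of all genes measured. The 3 subunits are among the 7 markers that named this cluster, so their rise in it is a description. FST, whose product follistatin binds activin, was also higher in 4 of 4 goats, at 1389, 687, 615 and 1072 CPM against 502, 345, 289 and 275, and Du'an 1 was here the highest goat.

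Of 24 genes on the list of the ovulatory response, 5 were Antral rows (TNFAIP6, PAPPA, SERPINE2, VCAN and PGR). All 5 were higher in the antral-like nuclei of Du'an 2, Nubian 1 and Nubian 2. So were 58.3% of all Antral genes and 17.2% of all genes measured. SERPINE2 is also among the 7 markers that named the cluster, so these values are a description. TNFAIP6, which cross-links hyaluronan in the expanding cumulus, had 0 UMIs in the antral-like nuclei of Du'an 1, where 3 counts would be 11.6 CPM, and stood at 212, 214 and 178 CPM in Du'an 2, Nubian 1 and Nubian 2, against 18.2, 38.8 and 42.7 in their other GC-set nuclei. PAPPA also had 0 UMIs there in Du'an 1 and stood at 35.2, 125 and 1117 CPM in the other goats, against 2.63, 17.6 and 28.6. The PAPPA level of Nubian 2 was far above that of any other goat. SERPINE2, a secreted inhibitor of serine proteases, stood at 339, 5062, 5793 and 1743 CPM, against 197, 541, 878 and 244.

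**Figure D4:**
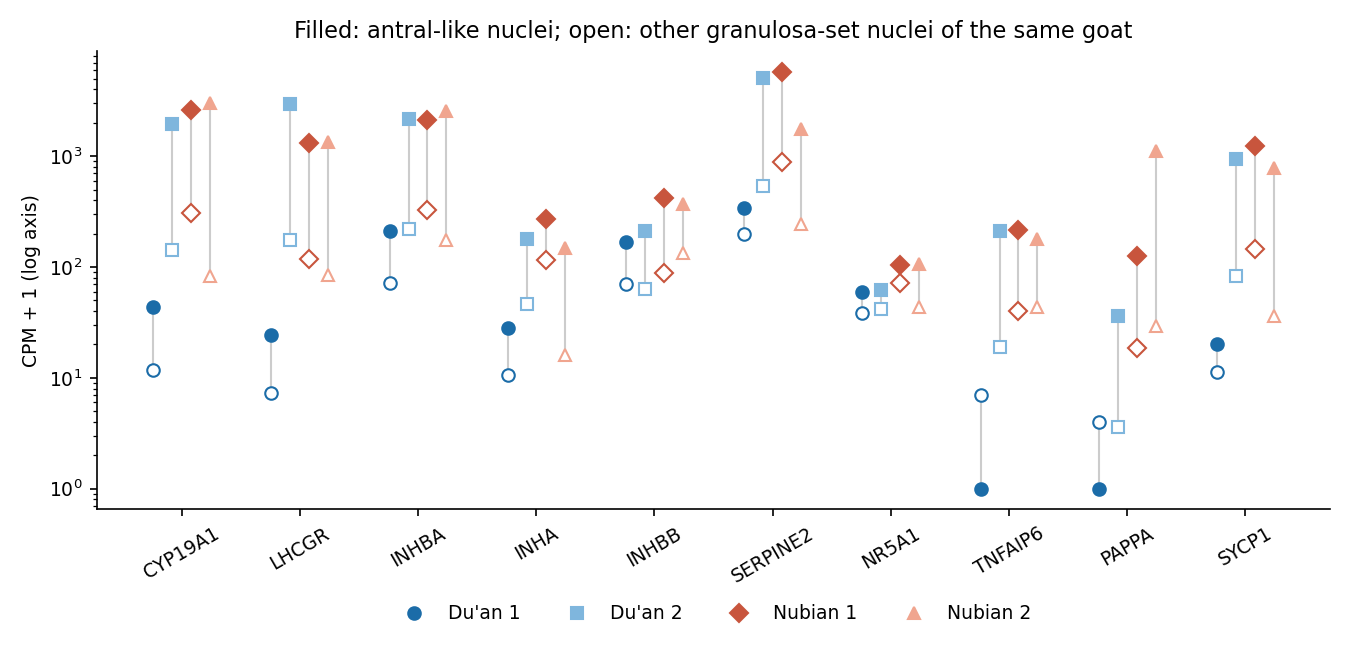
CPM plus 1 on a log axis for 10 Antral genes in each goat, filled symbols for antral-like nuclei and open symbols for the other GC-set nuclei of the same goat, joined by a line. In Du'an 2, Nubian 1 and Nubian 2 each filled symbol lies above its open symbol, while Du'an 1 lies below the other goats for CYP19A1 and LHCGR and at 0 UMIs for TNFAIP6 and PAPPA.

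Over all Antral genes, the log2 ratio of antral-like to other GC-set nuclei had a median of -0.03 in Du'an 1, 0.32 in Du'an 2, 0.25 in Nubian 1 and 0.19 in Nubian 2. The ratio was above 0 in every goat for 378 of 1229 genes (30.8%), against 10.3% of the 9759 genes measured at 5 CPM or more. Without Du'an 1 it was above 0 in every goat for 716 (58.3%), against 17.2%. These nuclei are those in which the authors ranked the genes, so no test was made. Of the 20 genes with the largest differences, 20 were higher in the antral-like nuclei of Du'an 2, Nubian 1 and Nubian 2 and 12 in those of Du'an 1, where 5 of the 20 (TRABD2B, RAB3C, OBSL1, SYCP1 and LHCGR) had 2 to 6 UMIs and their directions are not read singly. Their median log2 ratio was 0.73 in Du'an 1 and 3.20, 2.67 and 2.56 in the others.

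The GC set was also split by aromatase in place of clusters. This split is a description, since CYP19A1 was second in the stage's order, the nuclei are those in which the genes were ranked, and free RNA can give a nucleus a CYP19A1 UMI. Between nuclei with and without a CYP19A1 UMI, 500 of the other 1228 Antral genes (40.7%) were higher with CYP19A1 in every goat, against 11.7% of 9692 genes. Without Du'an 1 the count was 704 (57.3%, against 16.4%). With an LHCGR UMI in place of a CYP19A1 UMI it was 321 (26.1%, against 6.63%), and 727 without Du'an 1 (59.2%, against 14.9%).

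For some Antral genes Nubian 1 went one way and other goats the opposite way. FAM19A2, a secreted chemokine-like protein, was seen in 74.1% of Antral nuclei and 50.7% of the others, yet its CPM was lower in the antral-like nuclei of Du'an 1 (606 against 706), Du'an 2 (334 against 1370) and Nubian 2 (149 against 288), and higher only in Nubian 1 (3452 against 1933). Nubian 1 had the highest FAM19A2 level in both kinds of nuclei. CRIM1, whose pooled share was lower in the stage, was also lower in 3 goats, at 312, 258 and 208 CPM in the antral-like nuclei of Du'an 1, Du'an 2 and Nubian 2 against 552, 381 and 775, and higher in Nubian 1, at 617 against 289. In all, 43 Antral genes (3.50%) were higher in the antral-like nuclei of Nubian 1 and lower in those of Du'an 2 and Nubian 2. CRIM1 and EZH2, with a lower pooled share in the stage, were among them, and 3 had a pooled difference of 10 points or more. The count of 43 has no share of all genes beside it and is not read as particular to Antral.

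The mitochondrially encoded respiratory chain genes were a further case. Of the 13, 8 were Antral rows, namely ND1, ND2, ND5, COX1, COX2, COX3, ATP6 and CYTB, with shares higher in the stage by 3.8 to 15.1 points. This was not particular to Antral, since 10 of the 13 were Secondary rows, these 8 among them. ATP6 (80.4%), COX2 (69.5%) and CYTB (93.2%) had higher shares in Secondary than in Antral (74.1%, 66.0% and 92.2%). The rest of the 8 were slightly lower there, such as COX1 at 56.7% against 57.4%. In CPM all 8 of these genes were higher in the antral-like nuclei of Du'an 1 and Nubian 2 and all 8 lower in those of Nubian 1. In Du'an 2 COX2 and ATP6 were nearly absent, at 2 and 6 UMIs (0.21 and 0.64 CPM) in the antral-like nuclei and at 0.88 and 0.74 CPM in the other GC-set nuclei, while both stood above 400 CPM in either kind of nuclei of the other goats. No direction is read from those 2 genes in Du'an 2, and the other 6 were lower in its antral-like nuclei. All 8 were also lower in the GC set than in the other cells of the ovary (edgeR adjusted p below 0.05), against 29.4% of all genes and 3.87% of the Antral genes tested. The part of all 13 mitochondrially encoded genes in the UMIs in the antral-like nuclei was 2.38%, 1.01%, 1.34% and 1.44% in Du'an 1, Du'an 2, Nubian 1 and Nubian 2, against 0.576%, 1.42%, 1.77% and 1.23% in the other GC-set nuclei. No direction was common to the goats within the GC set, and the share of mitochondrial UMIs differs with nuclear RNA quality, whose part here was not tested.

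Detection in cells of other types bears on the lower of the 2 shares. Free RNA in the droplets, doublets and misplaced nuclei could each give such UMIs, and their parts were not tested. T- or natural killer-like nuclei, which should lack aromatase, had a CYP19A1 UMI in 24.3% of nuclei at a median depth of 2284 UMIs, against 21.5% in the other GC-set nuclei at a median of 4446. The same held for LHCGR (25.4% and 17.9%), SYCP1 (15% and 14%) and PLD5 (24.5% and 18.6%), so the pooled shares of these genes outside the Antral stage are not read as expression. The goats made up unequal parts of the 2 kinds of nuclei, with 1721 of the 2605 T- or natural killer-like nuclei from Du'an 2. Thinned to 1000 UMIs per nucleus, CYP19A1 stood at 71.3% of antral-like, 8.31% of other GC-set and 12.7% of T- or natural killer-like nuclei. By goat it stood at 1.03%, 10.2%, 22.2% and 4.60% of other GC-set nuclei in Du'an 1, Du'an 2, Nubian 1 and Nubian 2, against 0%, 12.7%, 23.4% and 2.92% of T- or natural killer-like nuclei. The thinned shares of all 4 genes in the other GC-set nuclei of Du'an 2 and Nubian 1 were below those of the T- or natural killer-like nuclei, and in Nubian 2 above them. In Du'an 1, with 93 T- or natural killer-like nuclei deep enough, 3 of 4 were above. Over the pooled nuclei, for 136 of the 1229 Antral genes (11.1%) the authors' share in the other stages was at or below that of T- or natural killer-like nuclei, and for 54 genes so was the Antral share. These 2 counts were not taken at equal depth. Thinned to 1000 UMIs, only 765 of the 1229 genes had a higher share in other GC-set than in T- or natural killer-like nuclei. In antral-like nuclei 915 did.

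Markers of other cell types were compared in the antral-like and the other GC-set nuclei. The 5 theca markers summed to 34.7, 56.3, 58.5 and 35.5 CPM in the antral-like nuclei of Du'an 1, Du'an 2, Nubian 1 and Nubian 2, against 96.5, 67.1, 52.8 and 60.5, with PTCH1 the most abundant and none at 0 UMIs. The 9 T or natural killer markers summed to 54.0, 71.9, 37.4 and 28.6 CPM, against 14.4, 44.1, 32.2 and 16, with PTPRC the most abundant and none at 0. The 9 cycling markers, led by CENPF, summed to 694, 235, 942 and 569 CPM, against 254, 387, 297 and 400, and the part of these markers in the Antral values was not tested. In Du'an 1 further lists were higher in the antral-like than in the other GC-set nuclei. Its 4 fibroblast markers summed to 185 CPM against 29.3, its 6 lymphatic endothelial markers to 540 against 272, its 8 blood endothelial markers to 131 against 69.5 and its 7 macrophage markers to 42.4 against 11.4. In the antral-like nuclei of Du'an 2, Nubian 1 and Nubian 2 these lists summed to 27.2, 93.7 and 28.2 CPM (fibroblast, led by COL1A2), 168, 100.2 and 194 (lymphatic endothelial, led by MMRN1), 58.7, 71.4 and 47.3 (blood endothelial, led by VWF) and 37.9, 24.6 and 53.0 (macrophage, led by CD74), and none of their markers was at 0 UMIs over the 4 goats. The 6 progenitor GC markers, led by CDK14, stood at 876 CPM in the antral-like nuclei of Du'an 1, against 191, 293 and 459 in the other goats, and were lower there than in the other GC-set nuclei in 4 of 4 goats. The 6 stromal markers, led by TSHZ2, summed to 590, 1446, 236 and 1024 CPM in the antral-like nuclei of Du'an 1, Du'an 2, Nubian 1 and Nubian 2. In the other GC-set nuclei they summed to 657, 917, 323 and 1374. The 8 smooth muscle markers, led by MYH11, summed to 382, 374, 381 and 230 CPM, against 315, 436, 610 and 266. Of 10 oocyte markers, 5 had no UMI in the antral-like nuclei.

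Whether the Antral genes distinguish GCs from the other cells of the ovary is a contrast that the stage table does not use. UMI counts were summed per goat over the GC set and over all other named nuclei, and tested by edgeR's quasi-likelihood test with the goat as a block. Of 1216 Antral genes that had not served to name nuclei, 706 (58.1%) were higher in the GC set at an adjusted p below 0.05, against 22.5% of all 16358 genes, and 47 (3.87%) were lower, against 29.4%. The median log2 fold change was 0.49 for these genes and -0.04 for all genes. Of 1982 genes listed only under the other 3 stages, 1032 (52.1%) were higher and 122 (6.16%) lower, with a median of 0.43. Without Du'an 1, 655 Antral genes were higher and 32 lower. All rows of the table needed detection in over 25% of a group of GC nuclei, which favours genes high in GCs, so the share of all genes is not a like standard and the count is not read as particular to Antral.

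Steroid and cholesterol genes of the stage that were tested were higher in the GC set. CYP11A1 (LOC102173131, log2 fold change 1.01, SE 0.16, edgeR adjusted p = 0.00288), FDXR (1.06, SE 0.20, adjusted p = 0.00622) and HSD17B12 (0.70, SE 0.17, adjusted p = 0.0159) were the 3 steroid genes tested. All 6 tested genes of cholesterol synthesis and uptake were higher as well, beside 58.1% of all Antral genes and 22.5% of all genes, among them the lipoprotein receptor LRP8 (1.98, SE 0.13, adjusted p = 0.00013). Outside the antral-like nuclei CYP11A1 (0.24), FDXR (0.32) and LRP8 (0.73) were no longer called. Without the goat as a block they were not called either, at log2 fold changes of 1.00, 1.15 and 1.93, close to those with it. HSD17B12 was not called without Du'an 2 (0.55). LRP8 had the largest stage difference of the 7 cholesterol genes listed under Antral (64.4% and 21.1%), while SQLE, FDFT1 and SREBF2 differed by at most 11.9 points and stood under 1 or 2 other stages as well.

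Receptor and signalling genes were counted list by list, beside 58.1% of all Antral genes higher. The BMP and TGF-beta receptors BMPR1A, BMPR2 and TGFBR3 and the TGF-beta mediator SMAD2 were higher in the GC set, 4 of 4 tested. SMAD2 stood at 2.10 (SE 0.14, edgeR adjusted p = 0.000144). Of 6 tested genes of cAMP signalling, which lies downstream of LHCGR, 3 were higher, led by the regulatory kinase subunit PRKAR2B at 2.19 (SE 0.15, adjusted p = 0.00015), and the phosphodiesterase PDE4D was lower at -2.26 (SE 0.52, adjusted p = 0.0126). PDE4D was nonetheless seen in 48.0% of Antral nuclei and 20.9% of the others. The receptors ROR1, ROR2, LGR4 and RYK of the WNT pathway were higher, 4 of 4, with ROR2 at 2.03 (SE 0.21, edgeR adjusted p = 0.000616). ROR2 was seen in 96.9% of Antral nuclei and 65.7% of the others. Of 3 IGF and insulin genes tested, IRS1 was higher, IGFBP7 lower and 1 was not called.

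Of 9 transcription factor genes tested, 6 (66.7%, against 58.1% of all Antral genes) were higher in the GC set (FOXO1, GATA4, GATA6, HMGA2, PBX3 and ZFPM2), NFKB1 was lower, and the nuclear receptor genes ESR1 and PGR were not called. HMGA2, a chromatin architectural factor, reached 2.61 (SE 0.16, edgeR adjusted p = 0.000113) and was seen in 65.3% of Antral nuclei and 31.3% of the others. GATA6 stood at 80.2% and 46.4%, and its CPM in the antral-like nuclei was 150, 430, 933 and 1037 in Du'an 1, Du'an 2, Nubian 1 and Nubian 2, the Nubian goats lying above the Du'an goats.

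Among the Antral rows were 12 listed axon guidance and adhesion genes, with shares larger in the stage by 15.4 to 61.6 points. Of these 12, 6 (50%, against 58.1% of all Antral genes) were higher in the GC set, ROBO1, UNC5C, EPHA3, SEMA6D, IGSF11 and GJA1, and the other 6 were not called, CDH11 among them at 0.22 (SE 0.58, edgeR adjusted p = 0.766). ROBO1, a receptor for SLIT ligands, stood at 5385 CPM in the antral-like nuclei of Nubian 1 and at 135, 769 and 1229 in Du'an 1, Du'an 2 and Nubian 2. Nubian 1 was thus the highest goat by a wide margin.

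**Figure D5:**
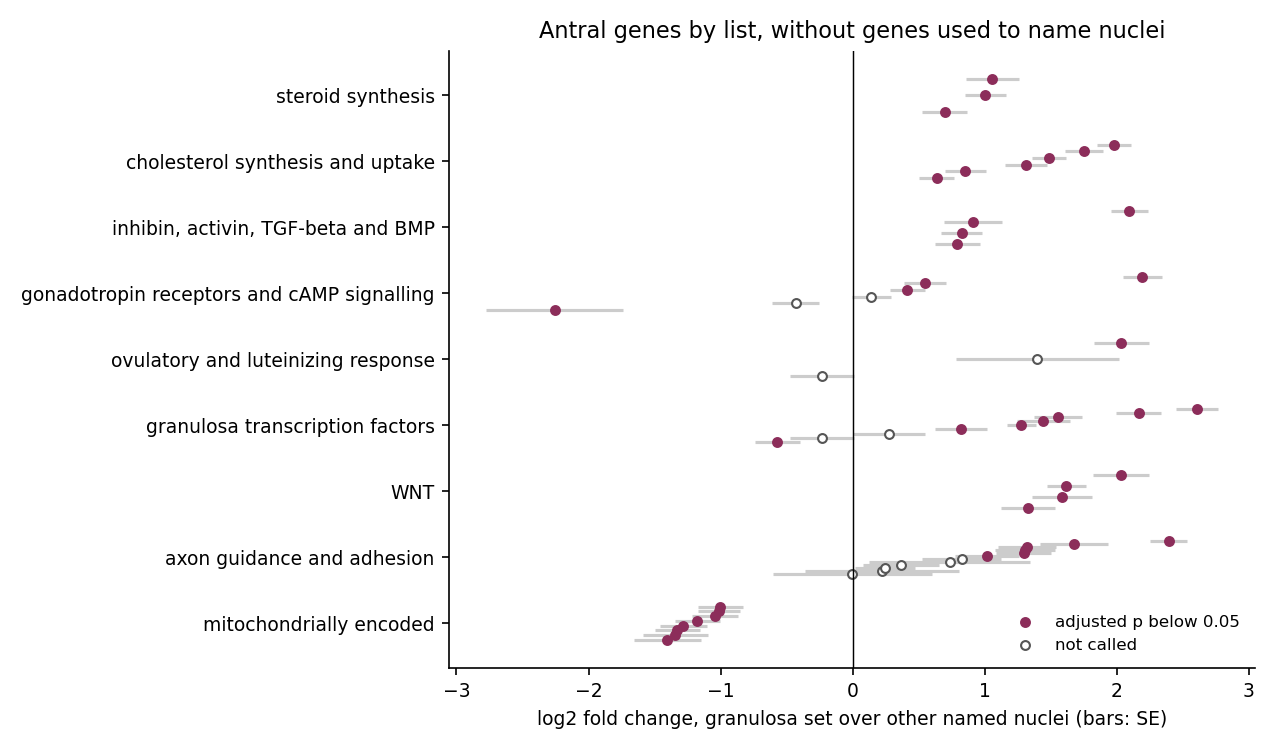
edgeR log2 fold change of Antral genes in the GC set over the other named nuclei (bars, SE, 4 goats), grouped by list, filled at an adjusted p below 0.05, without the genes that named nuclei. The steroid, cholesterol, TGF-beta and WNT genes lie right of 0 and the 8 mitochondrially encoded genes left of 0, between -1.4 and -1.0.

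Of the 16 tested genes among the 20 with the largest stage differences, 10 (62.5%, against 58.1% of all Antral genes) were higher in the GC set and 0 lower. TMEM200A (log2 fold change 2.10, SE 0.13, edgeR adjusted p = 0.00011), RAB3C (2.22, SE 0.21, adjusted p = 0.000435), TRIB2 (2.15, SE 0.17, adjusted p = 0.000252) and PLD5 (1.83, SE 0.19, adjusted p = 0.000672) were higher, and so was SYCP1 (1.49, SE 0.47, adjusted p = 0.0377). PDZRN3, CDH11, FOXP2, SUGCT, TRABD2B and PAG1 were not called. Without Du'an 1, PDZRN3 (1.11), SUGCT (1.61) and TRABD2B (1.31) were called higher, and FOXP2 was called lower outside the antral-like nuclei (-1.28). SYCP1 stood at -0.22 outside the antral-like nuclei, and its call was lost without Du'an 2, Nubian 1 or Nubian 2 (1.22, 1.37 and 1.24). Of the 10 genes, 2 (TRIB2 and LOC102174170) were still called outside the antral-like nuclei, where the others stood at -0.22 to 0.79. Without the goat as a block 1 (TMEM200A) was called, although the others kept log2 fold changes of 0.78 to 2.16.

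The breeds were compared in the GC set. The stage table does not use the breed, but it pools the nuclei of all goats, and Nubian 1 supplied 68.0% of the antral-like nuclei. Genes high in Nubian 1 could enter the Antral list in this way, so the list and this contrast are not independent. edgeR called 0 of the 1229 Antral genes between Nubian and Du'an goats, where it called 0 of 15044 genes in all (0.0%). At an unadjusted p below 0.05, 27 Antral genes (2.20%) passed, against 2.55% of all genes. The count moved with the setting, to 41 by DESeq2 (428 of all 15044 genes) and to 12 by edgeR with the replicate number as a block (245). The lower share of Antral genes is therefore not read as particular to them. With a goat left out, 1 sample remains in a breed, and this count is not read. DESeq2 called 3 Antral genes, all higher in Nubian goats, against 0.111% of the 14460 genes to which it gave an adjusted p. They are named although their values were seen first. PAPPA stood at 2.92 and 12.5 CPM in the GC set of Du'an 1 and 2 and at 89.6 and 140 in Nubian 1 and 2 (DESeq2 log2 fold change 3.88, SE 0.69, adjusted p = 4.459e-05, and edgeR adjusted p = 0.9999). TC2N stood at 35.4 and 86.3 against 298 and 476 CPM, and LOC106502935 at 17.4 and 21.4 against 129 and 94.6. For these 3 genes both Nubian goats lay above both Du'an goats.

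The Antral genes leaned toward the Nubian goats in the GC set, and the lean depended on Nubian 1 and Du'an 1. Because Nubian 1 supplied most antral-like nuclei, the lean is not read as independent of how the genes were chosen. Both Nubian goats lay above both Du'an goats for 278 Antral genes (22.6%, against 12.9% of all genes) and below them for 21 (1.71%, against 11.6%). Nubian 1 was the highest goat for 803 Antral genes and Du'an 1 the lowest for 687. These counts by goat have no share of all genes beside them and are not read as particular to Antral. The median log2 fold change of Nubian over Du'an goats was 0.12 for the Antral genes and 0.005 for all genes. It was -0.05 without Nubian 1 (all genes -0.017) and 0.04 without Du'an 1 (0.022). It was 0.23 without Du'an 2 (all genes 0.028) and 0.25 without Nubian 2 (-0.033). The Antral median was 0.20 in the antral-like nuclei and 0.013 outside them. Fewer antral-like nuclei and a lower level in each nucleus cannot be told apart in the sum over the GC set.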

How the data were processed

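For each goat the authors deposited UMI counts per gene and nucleus, not normalized, made with Cell Ranger (version 5.0.0 in the submitters' processing notes, 3.1.0 in the matrix headers) and used with Seurat. The stage and subtype tables give each share of nuclei as a fraction, pooled by the authors over nuclei and printed here as percent; their fold changes and p-values for each stage or subtype against the others take each nucleus as a replicate and were set aside. The genome is given by an assembly number only, and names came from the RefSeq table of assembly ARS1.2. Nuclei within 2 SD of their library's mean UMI and gene numbers and with at most 20% mitochondrial UMIs were kept (8723, 9999, 15848 and 10302 for Du'an 1, Du'an 2, Nubian 1 and Nubian 2, at medians of 1755, 3317, 2208 and 1897 UMIs). No doublet caller and no integration of libraries was run. Counts scaled to 10000 UMIs, 2000 variable genes without the Antral, mural and listed genes, 30 principal components and 20 neighbours gave Leiden clusters at resolution 0.8 (scanpy 1.11.5, leidenalg 0.10.2). Marker lists named clusters under limits set after the data were seen, in place of a planned limit on marker transcripts. A shallow cluster led by ribosomal genes was left out.

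Sums per goat were tested by edgeR 4.0.16 (TMM, filterByExpr, Benjamini-Hochberg over all genes, limit 0.05, R 4.3.3), with the SE taken as the fold change over the root of F, and by DESeq2 1.42.0. Both fits were checked on simulated counts. Ratios within goats used CPM plus 1. Members and gene lists were chosen with earlier results of these data known. Genes were named as the 20 rows with the largest difference, rows lower in the stage, listed genes, up to 3 per direction called between breeds (0) and the 5 largest and 5 smallest differences from mural GCs. The alternatives were another tool, no low-count filter, each goat left out, stricter or other nuclei, blocks, and equal class weights. Intervals cover counting error only. Some listed genes are not reported here by name.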

Additional observations from a re-analysis of the deposited data

Results flagged for a closer look

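Among 41 per-goat values of the 20 Antral genes with the largest differences and the antral-like share, 6 had 1 goat far from the other 3, where chance flags about 1 in 20. In 5 of them the goat was Du'an 1. Its log2 ratio of GC set to other named nuclei was -0.78 for SYCP1, -1.63 for LHCGR and -2.80 for FOXP2, while the other goats lay at 1.5 to 1.83, 1.62 to 1.66 and -0.01 to 0.49. Its log2 ratio of antral-like to other GC-set nuclei was -1.81 for TMEM200A and -0.043 for OBSL1 (from 4 UMIs, so that no direction is read), against 2.65 to 3.56 and 2.38 to 2.65 in the other goats. Du'an 2 stood apart for LOC102174170, annotated as a glutathione S-transferase, with a log2 ratio of GC set to other nuclei of 1.70 against 1.31 to 1.37.

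PAG1, an adaptor of lymphocyte signalling, had a log2 ratio of GC set to other nuclei of -1.17 and -0.88 in the Du'an goats and 1.10 and 0.13 in the Nubian goats. The mean difference between the breeds was 1.63, and the difference was not tested. PAG1 was seen in 67.3% of T- or natural killer-like nuclei.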

How the results depend on the processing

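Between GC set and other nuclei, the count of Antral genes that were higher stayed within 1.5 times of 706 under every alternative (517 to 655 with a goat left out). The count that were lower was 47, 32 to 44 with a goat left out, 12 in antral-like nuclei only and 84 outside them. Among single genes, SYCP1, CDH11 and PAG1 turned to -0.22, -1.04 and -0.82 outside the antral-like cluster. FOXP2, at -0.09, ran from -0.43 without Nubian 1 to 0.58 without Du'an 1. It ran from -1.28, then called lower, outside that cluster to 0.82 in it. Under alternatives that did not call them, PDZRN3 ran from -0.97 to 1.29, TRABD2B from -0.89 to 1.86 and SUGCT from -0.13 to 2.07. Without the goat block 9 of the 10 called genes among the 20 largest lost their call at log2 fold changes of 0.78 to 2.16 (0.89 to 2.22 with it), and outside the antral-like cluster 8 did at -0.22 to 0.79. In antral-like nuclei only, HSD17B12 (0.70) and PDE4D (-1.60) were not called. Calls were gained in 10 cases, by PDZRN3, SUGCT and TRABD2B without Du'an 1 and with classes weighted equally, by PAG1 with equal weights (1.18) and in antral-like nuclei (1.41), by SUGCT with DESeq2 and by FOXP2 as above. The antral-like share was 9.15%, 35.7%, 68.6% and 26.6% in Du'an 1, Du'an 2, Nubian 1 and Nubian 2 without the unnamed cluster. The cause was not tested. Leaving a goat out left 1 sample in a breed, assumed to vary like the other breed, and edgeR called 0 Antral genes each time (lowest 0, highest 0). DESeq2 called 3. The median log2 fold change between breeds, 0.12, ran from -0.05 to 0.25 with a goat left out, the reversal to -0.05 being without Nubian 1, and was 0.20 in antral-like nuclei and 0.013 outside them, 2 settings chosen after seeing the data. A difference of 10 points left 465 of the 1227 rows that were higher in the stage, and of 25 points 133. Between nuclei with and without CYP19A1, 500 genes were higher in every goat, and 552 to 704 with a goat left out. Split by LHCGR instead, 321 were, and 340 to 727 with a goat left out.

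With the replicate number as a block the breeds gave 0 called genes and a median of 0.13, but the same-numbered goats deviated oppositely (r = -0.32 across 15044 genes), so the numbers pair nothing. A crossed block called 0 Antral genes and 1 gene in all.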
